A study of Caenorhabditis elegans with 4 samples.

Results

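The 210 peaks described here are all those that the combined SMA-9::GFP peak list places on the X chromosome, out of 960 on all chromosomes. They were chosen by chromosome name alone, so their width, q-value, spacing and presence in the replicate lists were not used to choose them. They come from chromatin immunoprecipitation and sequencing (ChIP-seq) of whole Caenorhabditis elegans hermaphrodites at the L2 larval stage, with 2 ChIP and 2 input libraries. All libraries are of strain OP130, a single bombarded line. It carries the mutation unc119(ed3) and the transgene wgIs130, a C-terminal sma-9::TY1 EGFP FLAG fusion with a copy of unc119. The protein that was pulled down with anti-GFP antibodies is thus made from a transgene, and no library from untagged animals was analysed here. The 548 peaks on chromosomes II to V served as the comparison.

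SMA-9 is a large zinc-finger protein, the C. elegans relative of Drosophila Schnurri. It works in the nucleus with the Smads SMA-2, SMA-3 and SMA-4, which act below the BMP-like ligand DBL-1 and its receptors SMA-6 and DAF-4. The pathway controls the body size of the worm and the form of the male tail, and SMA-9 also acts in dorsoventral patterning of the postembryonic mesoderm. The X chromosome of hermaphrodites is present as a pair whose transcription in somatic cells is lowered by the dosage compensation complex, and as on the other chromosomes recombination is more frequent in its arms than in its centre.

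Every peak is an interval called by the authors, with a start and an end on build WS220 and a q-value, the false discovery rate the peak caller assigned to it. A low q-value marks a strong call. The q-values are the authors' own, and tests used them within 1 list only. Where q-values of different lists stand side by side they are printed values. The lists differ in size, so a lower q in one list than in another was not read as a stronger site. The replicate 1 list held 103 peaks on X and 362 on II to V, and the replicate 2 list 16 and 72. There were thus 2.04 combined peaks on X for each replicate 1 peak, against 1.51 on II to V, and 6.44 replicate 1 peaks for each replicate 2 peak, against 5.03. Chromosome I, outside the comparison, held 202 combined peaks and 52 replicate 1 peaks. The depth of the libraries is unknown. The labels leave out whether replicates are separate cultures, so their spread may be technical. Intervals below are exact intervals at the 95% level and cover counting error only. Peaks of a list share libraries and lie in runs, so tests that count peaks as separate units give p-values that are too small.

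Peaks lay along the whole of X and were densest on its right arm. The left arm (below 6137000) held 61 peaks, the centre 71 and the right arm (above 12480000) 78. The densities were 9.94 peaks per Mb in the left arm (exact Poisson interval 7.60 to 12.8), 11.2 in the centre (8.74 to 14.1) and 14.99 in the right arm (11.8 to 18.7). The right arm was taken to end at the farthest peak end in any list, 17.7 Mb from the left end of X. The left arm had 0.663 times the density of the right arm (interval 0.467 to 0.939), while both intervals against the centre included 1, at 0.888 (0.620 to 1.27) for the left arm and 1.34 (0.958 to 1.87) for the right.

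**Figure D1:**
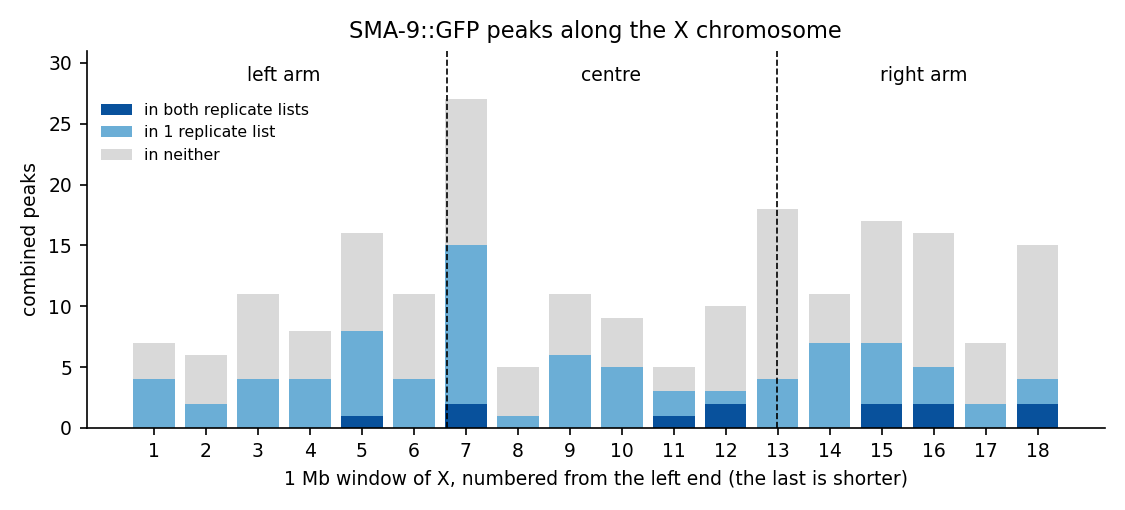
Combined peaks on X (vertical axis, count) in windows of 1 Mb from the left end (horizontal axis), split by whether a peak overlapped a peak in both replicate lists, in 1 or in neither. Dashed lines mark the arm limits. The window with most peaks, the seventh, holds 27, and the median full window holds 11.

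Within the arms and the centre the peaks were uneven. The 17 full windows of 1 Mb held from 5 to 27 peaks with a median of 11. The window with 27 peaks, from 6 to 7 Mb, spans the limit between the left arm and the centre and also held 14 replicate 1 peaks and 3 replicate 2 peaks. The sparsest windows, from 7 to 8 Mb and from 10 to 11 Mb, held 5 peaks each. Replicate 2 listed peaks in 9 of the 18 windows.

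The right arm was the densest part by value in each subset by replicate support, but its interval against the centre excluded 1 only among peaks in neither list. Among the 122 X peaks found in neither replicate list, the right arm had 9.61 per Mb (7.13 to 12.7), the centre 5.83 (4.11 to 8.04) and the left arm 5.70 (3.97 to 7.93). For these the right arm had 1.65 times the density of the centre (1.06 to 2.59). Among the 88 peaks in at least 1 replicate list the densities were 5.38 in the right arm, 5.36 in the centre and 4.24 in the left arm, and right arm and centre differed by a factor of 1.004 (0.586 to 1.71). The 12 peaks in both lists gave 0.163 per Mb in the left arm, 0.788 in the centre and 1.15 in the right arm (right arm over centre 1.46, 0.372 to 6.06). In the replicate 1 list itself the arms and centre held 33, 33 and 37 peaks from left to right, with 7.11 per Mb in the right arm against 5.20 in the centre (ratio 1.37, 0.831 to 2.25). Whether peaks in neither list and peaks in at least 1 list are distributed differently along X was not tested.

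X was denser in peaks than II to V in the combined list. It held 11.9 peaks per Mb on X (10.3 to 13.6) and 8.16 on II to V (7.49 to 8.87), a ratio of 1.46 (1.24 to 1.71). Among II to V the highest density was that of II with 9.12 (7.65 to 10.8), and chromosome I, which is outside the comparison, had 13.4 (11.6 to 15.4), above the value of X. For peaks in neither replicate list the ratio was 1.62 (1.30 to 2.01), from 122 peaks on X and 286 on II to V. Chromosome I was denser in these than X, with 10.6 per Mb against 6.90 on X and 4.26 on II to V. For peaks in at least 1 list it was 1.28 (0.990 to 1.63), and for those in both lists 0.876 (0.426 to 1.66). The replicate 1 list gave 1.08 (0.860 to 1.35) and the replicate 2 list 0.844 (0.458 to 1.47). The intervals of both replicate lists included 1. The intervals by support overlapped, and the tests of the shares in both lists and in at least 1 list, given next, did not separate X from II to V by support.

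**Figure D2:**
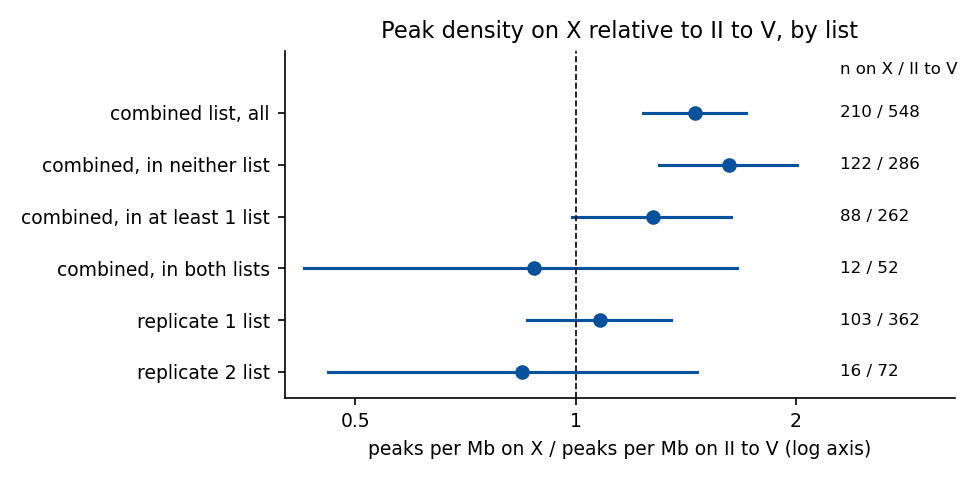
Peaks per Mb on X divided by peaks per Mb on II to V (horizontal log axis) for the combined list, its subsets by replicate support and each replicate list. Points are ratios, lines are exact intervals at the 95% level, and the numbers at the right are the peaks counted. The intervals for all combined peaks (1.24 to 1.71) and for those in neither list (1.30 to 2.01) lie above 1, and the others include 1.

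Of the 210 X peaks, 12 overlapped a peak in both replicate lists by at least 1 bp, or 5.71% (2.99 to 9.77), where all chromosomes together gave 6.67%. Another 72 overlapped replicate 1 only, 4 replicate 2 only and 122 neither. On II to V 52 of 548 were in both lists, 9.49% (7.17 to 12.3). The difference of -3.77 percentage points did not pass the threshold (Fisher's exact test, two-sided, p = 0.109, Benjamini-Hochberg adjusted over 6 comparisons of X with II to V 0.326, odds ratio 0.578 with interval 0.275 to 1.13). At least 1 replicate list held 88 X peaks, or 41.9% (35.2 to 48.9), against 47.8% on II to V (43.6 to 52.1) and 40.9% over all chromosomes. That difference of -5.91 points did not pass either (Fisher's exact test, p = 0.166, adjusted 0.333). It depended on the setting, at -11.8 points among peaks of 50 bp or more (Fisher's exact test, adjusted p = 0.0368) and 1.59 points, the opposite direction, at a q of at most 0.001 (adjusted p = 0.816).

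The 12 peaks in both lists were 5 in the centre, 6 in the right arm and 1 in the left arm. Their combined q-values ran from 6.31e-20 to 9.56e-07 with a median of 5.62e-12, and their widths from 346 to 948 bp with a median of 500 bp. No X peak under 346 bp was in both lists. The strongest pair lay in 1 run of peaks in the centre. For the first of them, X 6737323 to 6738052 (730 bp), the q-value was 6.31e-20 in the combined list, 1.09e-10 in replicate 1 and 1.40e-04 in replicate 2. The second, X 6741534 to 6742481 (948 bp), had 2.14e-18, 9.98e-07 and 3.59e-06, and it was the strongest X peak of replicate 2. Replicate 1 thus ranked the first of the pair higher and replicate 2 the second.

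In the centre, 3 more were in both lists. For X 11093853 to 11094381 (529 bp) the q-value was 1.54e-13 in the combined list, 3.57e-08 in replicate 1 and 0.00759 in replicate 2, where it ranked 66 of 89. X 10568449 to 10569031 (583 bp) showed the reverse, with 7.35e-12 in the combined list, 0.00129 and rank 190 of 517 in replicate 1, and 3.13e-05 and rank 12 in replicate 2. X 11605735 to 11606080 (346 bp) was the weakest of the 12 in the combined list, with 9.56e-07, 1.004e-04 in replicate 1 and 0.00322 in replicate 2. Replicate 2 called only 23 bp of the last of these.

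In the right arm, the q-value of X 14561448 to 14561955 (508 bp) was 3.30e-13 in the combined list, 3.83e-07 in replicate 1 and 0.00206 in replicate 2. X 14790280 to 14790771 (492 bp) had 2.34e-12, 3.23e-06 and 8.97e-04, and X 15707317 to 15707788 (472 bp) 3.89e-12, 1.23e-06 and 0.00379. In each of these peaks replicate 1 gave the lower q-value of the replicates. A further pair lay close to the right end, X 17479587 to 17480184 (2.45e-11 in the combined list, 7.10e-06 in replicate 1, 0.00635 in replicate 2) and X 17505690 to 17506047 (4.01e-09, 8.09e-05 and 0.00929). X 15841041 to 15841418 was the weakest of the 12 in replicate 1, with 3.39e-07 in the combined list, 0.00415 in replicate 1 and 0.00868 in replicate 2. The only left arm peak in both lists, X 4137833 to 4138185 (353 bp), had 2.32e-08, 0.00168 and 3.26e-04, with the lower q-value of the replicates in replicate 2.

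**Figure D3:**
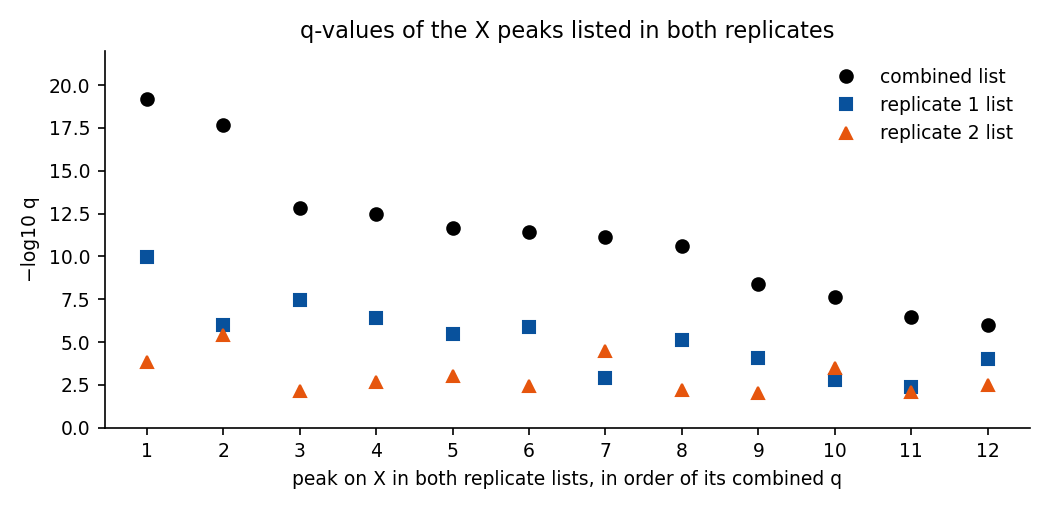
The 12 X peaks listed in both replicates (horizontal axis, in order of combined q) with their −log10 q (vertical axis) in the combined, replicate 1 and replicate 2 lists. The combined list gave the lowest q-value for every peak, and peaks 7 and 10 had a lower q in replicate 2 than in replicate 1.

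The order of the 12 peaks in the combined list was closer to that of replicate 1 than to that of replicate 2. Spearman's rho of −log10 q over these 12 peaks was 0.895 between the combined list and replicate 1, 0.448 between the combined list and replicate 2, and 0.182 between the replicates. These values are descriptions over 12 peaks that share libraries with the combined list. Replicate 1 covered a median of 89.5% of the width of the combined peak (16.4% to 99.6%) and replicate 2 a median of 70.7% (6.65% to 98.7%). Of the 12, 11 were narrower in replicate 1 than in the combined list, and 11 were narrower in replicate 2.

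All 16 replicate 2 peaks on X overlapped a combined peak (interval 79.4% to 100%), and 12 of them, or 75% (47.6 to 92.7), a replicate 1 peak. The 4 without a replicate 1 partner were X 864579 to 864598 (q 0.00284), X 2216724 to 2216777 (0.00337), X 10694344 to 10694372 (0.00652) and X 6741070 to 6741262 (0.00973). These 4 were 20, 54, 29 and 193 bp wide, and the last of them was the weakest peak of the whole replicate 2 list. On II to V replicate 2 had 59 of 72 peaks in the combined list, 81.9%, and 53 of 72 in replicate 1, 73.6%. The differences from X did not pass the threshold (Fisher's exact test, adjusted p = 0.228 and 1, over 4 such comparisons added after the values were seen).

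Of the 103 replicate 1 peaks on X, 12 overlapped a replicate 2 peak, 11.7% (6.17 to 19.5), against 14.6% on II to V. In the combined list were 85 of them, 82.5% (73.8 to 89.3), against 70.4% of 362 on II to V (difference 12.1 points, Fisher's exact test, p = 0.0164, adjusted over the same 4 comparisons 0.0656). The 18 X peaks of replicate 1 that the combined list lacked were 2 to 127 bp wide, with a median of 44 bp. The strongest of these was X 13323502 to 13323512, 11 bp wide, with a replicate 1 q of 1.32e-04, and the next was X 1160382 to 1160473 with 0.00111. The strongest replicate 1 peaks on X without a replicate 2 partner were the wide interval described next, X 14560167 to 14560558 (1.02e-09), X 14525650 to 14526088 (3.33e-06), X 4142160 to 4142504 (7.24e-06) and X 9187150 to 9188642 (1.02e-05). All of these were also in the combined list.

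A single interval stood apart from the other 209. X 10750843 to 10788222 was 37380 bp wide, 209 times the median X peak, and the next widest X peak measured 1493 bp. Its combined −log10 q was 181, and that of the next peak on X was 19.2. It held 45.3% of the 82.5 kb that X peaks covered, and without it they covered 45.2 kb. Replicate 1 listed the interval with a start 34 bp and an end 39 bp inside those of the combined list and a q of 3.74e-49. Replicate 2 listed nothing within it. The gene sma-9 is annotated on X in RefSeq's WBcel235 gene table, and whether the interval holds it was not determined here, since no annotation of WS220 was used. The transgene wgIs130 also carries sma-9. Whether the interval marks binding of SMA-9, and any part of the transgene in it, was not tested.

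The surroundings of the wide interval held few peaks. To its left the nearest were X 10694346 to 10694372 (27 bp, q 1.55e-04, in replicate 2 only) at 56.5 kb, X 10637575 to 10637604 (30 bp, 0.00127, in neither list) and X 10568449 to 10569031, one of the 12 in both lists. To its right came X 11031071 to 11031615 (545 bp, 1.54e-07, in replicate 1) at 242.8 kb, X 11057180 to 11057292 (113 bp, 1.09e-04, in neither) and X 11093853 to 11094381, another of the 12. Leaving out the wide interval moved the counts by 1 peak: 209 peaks in all and 70 in the centre, with a centre density of 11.04 per Mb. The median width stayed at 179 bp, and the share in both lists was 5.74%.

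The 20 strongest X peaks comprised the wide interval, 10 of the peaks in both lists and 9 others, all of these in replicate 1 and none in replicate 2. Of the 20 strongest on II to V, 18 were in both lists and all 20 in replicate 1. These 20 are a smaller part of their 548 peaks than the 20 on X are of 210. The q-value of the weakest of the 20 was 3.29e-07 on X and 5.01e-11 on II to V. At a combined q of 1e-10 or below, 8 of 10 X peaks were in both lists, against 19 of 21 on II to V. Between 1e-10 and 1e-06 the counts were 4 of 16 and 16 of 33. No test was made of these counts. Of the 9, the strongest was X 14560167 to 14560558 (392 bp, combined q 5.75e-13), which lay 1009 bp from a replicate 2 peak. It was followed by X 9187150 to 9188642 (1.73e-09), the second widest X peak, X 6296258 to 6296803 (2.35e-09) and X 14525507 to 14526114 (2.66e-09). The others were X 8475097 to 8475611 (6.80e-09), X 4142148 to 4142501 (7.82e-08), X 535813 to 536142 (1.48e-07), X 11031071 to 11031615 (1.54e-07) and X 17421611 to 17422029 (3.29e-07). Of the 20, 3 lay in the left arm, 9 in the centre and 8 in the right arm, and all 20 were in the replicate 1 list. Among the strongest 20 combined peaks of the genome 4 were on X, and among the strongest 100 26 were, shares near the 21.9% that X holds of the whole list.

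Over all X peaks the median q was 6.70e-04 (quartiles 5.98e-05 and 0.00297), against 8.93e-04 on II to V (1.22e-04 and 0.00336). At a q of at most 0.001 were 117 X peaks, 55.7% (48.7 to 62.5), and 52.7% on II to V (48.5 to 57.0), with 53.3% over all chromosomes (difference 2.98 points, Fisher's exact test, p = 0.465, adjusted 0.559). At a q of at most 1e-10 were 10 X peaks, or 4.76% (2.31 to 8.58), 5 in the centre and 5 in the right arm. On II to V the share was 3.83%, and over all chromosomes 3.96%. The left arm had none of its 61 peaks at that level and a lowest q of 2.32e-08. The centre had the lowest median q of X at 4.62e-04, with 7.77e-04 in the left arm and 8.34e-04 in the right.

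Weak X peaks, those with a combined q above 0.001, were found in replicate 1 less often than weak peaks on II to V. Of 93 such X peaks, 8 overlapped a replicate 1 peak, 8.60% (3.79 to 16.2), against 66 of 259 on II to V, 25.5% (20.3 to 31.2), and 16.7% over all chromosomes. The difference of -16.9 points passed the threshold (Fisher's exact test, two-sided, p = 3.53e-04, adjusted over 5 classes of q 0.00176), a comparison added after the values were seen. Peaks that share libraries were counted as separate units here, so both p-values are too small. The 4 comparison chromosomes gave 21.0% (II), 26.0% (III), 32.4% (IV) and 22.4% (V), so X lay below each of them, while chromosome I, outside this comparison, gave 1 of 96. Along X the shares were 4 of 30 in the left arm, 3 of 27 in the centre and 1 of 36 in the right arm. The class was not matched for q within it: the median q was 0.00316 on X and from 0.00254 (III) to 0.00405 (II) on II to V. The median width was 108 bp on X and 96 bp on II to V, and among weak peaks of 50 bp or more the shares were 8.96% and 32.0%. The part of q and width in the difference was not tested. Replicate 2 listed 0 of the 93 weak X peaks and 4 of the 259 on II to V, so the comparison rests on the replicate 1 list alone.

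In the stronger classes no difference from II to V passed the threshold. Between 1e-04 and 0.001 replicate 1 held 28 of 55 X peaks (50.9%) and 79 of 157 on II to V (50.3%). Between 1e-06 and 1e-04 it held 22 of 36 (61.1%) and 57 of 78 (73.1%), a difference of -12.0 points (Fisher's exact test, adjusted p = 0.686). At 1e-10 or below it held all 10 X peaks and all 21 on II to V, and between 1e-10 and 1e-06 it held 16 of 16 and 32 of 33. Replicate 2 held 8 of the 10 X peaks at 1e-10 or below and 4 of the 16 between that and 1e-06, where on II to V it held 19 of 21 and 16 of 33. The difference in replicate 2 was not tested.

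X peaks were mostly narrow. Widths ran from 2 to 37380 bp with a median of 179 bp (quartiles 54.2 and 332), against a median of 149 bp on II to V (50.0 and 270). Wider than 152 bp, the median of X and II to V together, were 110 X peaks, 52.4% (45.4 to 59.3), and 48.9% on II to V, with 47.9% over all chromosomes (Fisher's exact test, p = 0.417, adjusted 0.559). Under 50 bp were 48, or 22.9% (17.4 to 29.1), and 24.5% on II to V, with 26.1% over all chromosomes (Fisher's exact test, p = 0.704, adjusted 0.704). Neither difference passed the threshold, and the odds ratios had intervals of 0.825 to 1.60 and 0.614 to 1.35. At the narrow end 15 of the 210 X peaks spanned 10 bp or less, against 41 of 548 on II to V. At the wide end 18 of the 210 X peaks spanned 500 bp or more, against 30 of 548 on II to V. Neither count was tested or taken over all chromosomes.

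Widths in the left arm are given here as values, with no test against the rest of X. None of its 61 peaks reached 500 bp, and the widest had 467 bp, while 13 in the centre and 5 in the right arm did. In the centre and right arm stronger peaks were wider, with Spearman's rho between width and −log10 q of 0.579 over 71 peaks and 0.661 over 78. In the left arm rho was 0.10 over 61 peaks, and it was 0.289 among the 44 of 50 bp or more. In the replicate 1 list the values were 0.315 in the left arm, 0.817 in the centre and 0.466 in the right arm. Each of II to V taken singly gave 0.454 to 0.498 in the combined list. Of the 17 left arm peaks under 50 bp, 11 had a q of at most 0.001 and 9 were in a replicate list. In the centre these counts were 7 and 3 of 17, and in the right arm 4 and 0 of 14.

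Gaps between neighbouring X peaks varied widely. The gap between neighbours had a median of 36.8 kb (quartiles 5.05 and 109), against 57.6 kb on II to V (12.95 and 168). Of the 209 gaps 52 were under 5 kb, 24.9% (19.2 to 31.3), against 16.5% on II to V (13.5 to 19.9) and 19.1% over all chromosomes. The difference of 8.34 points passed the threshold before adjustment and not after it (Fisher's exact test, p = 0.0123, adjusted 0.0736, odds ratio 1.67 with interval 1.11 to 2.50). Without the wide interval the difference was 8.46 points (Fisher's exact test, adjusted p = 0.0557). X had the higher density of peaks, which shortens gaps by itself, and relative to its own mean gap the median gap was 0.437 on X and 0.475 on II to V. The part of density in the difference was not tested.

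The share of close neighbours was lowest in the left arm, with 18.3% of 60 gaps under 5 kb, and was 28.6% of 70 in the centre and 27.3% of 77 in the right arm. The exact intervals overlapped, at 9.52 to 30.4, 18.4 to 40.6 and 17.7 to 38.6. At the other extreme 61 gaps exceeded 100 kb. The longest gap on X, 597 kb, lay in the centre between X 8550348 and X 9147122, followed by 519 kb between X 9669630 and X 10188733 in the centre and 503 kb between X 3128186 and X 3631407 in the left arm. The shortest gap was 217 bp, the same as the shortest on II to V.

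Runs in which every gap was under 5 kb took up 83 of the 210 X peaks, as 22 pairs, 5 trios and 4 runs of at least 4. On X 60.5% of peaks stood alone, against 71.2% on II to V. Runs of at least 4 held 24 X peaks, 11.4%, and 29 on II to V, 5.29%, and on II to V singly from 0% (II) to 9.66% (V). Of the 24 peaks in the X runs 16 were in replicate 1 and 5 in replicate 2. A single run, described next, supplied 11 of the 24, 8 of the 16 and 3 of the 5. Of the 127 X peaks that stood alone 47 were in replicate 1 and 8 in replicate 2, and over all 210 X peaks the counts were 84 and 16. On II to V replicate 1 held 24 and replicate 2 12 of the 29 peaks in such runs, and 166 and 33 of the 390 that stood alone. No test was made of the peaks in runs, nor of the part that the higher density of X has in them.

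The run with most peaks, X 6733623 to 6750515, held 11 peaks in 16.9 kb, and its peaks covered 29.6% of that span. The strongest pair of X peaks in both lists, described above, stood in it. Between them lay X 6740673 to 6741250 (578 bp, combined q 2.99e-06), which replicate 2 listed with 0.00973 and replicate 1 did not list. To the right of the pair, X 6743673 to 6744254 had a combined q of 7.11e-07 and a replicate 1 q of 1.45e-04. At the right end X 6749005 to 6749620 (1.62e-06 and 4.13e-04) and X 6750067 to 6750515 (1.36e-06 and 2.87e-05) were also in replicate 1. The other members had combined q-values between 1.41e-04 and 0.00316, and 2 of them were in neither list. Gaps inside the run were 283 to 3238 bp, and the gaps on either side were 69.5 kb and 16.7 kb.

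**Figure D4:**
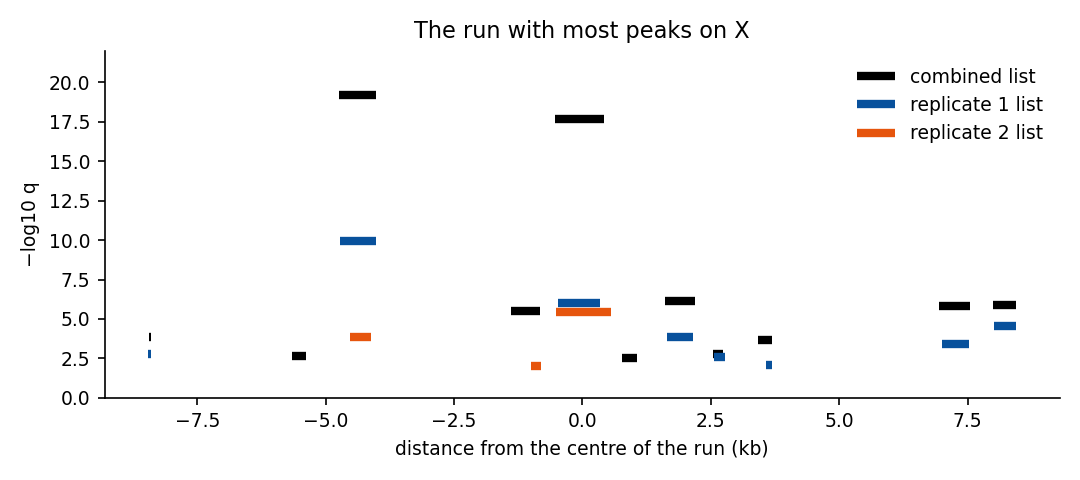
The 11 combined peaks of the run with most peaks on X (black) and the replicate peaks that overlap the run (blue and orange), as bars from start to end by distance from the centre of the run (horizontal axis, kb) at their −log10 q (vertical axis). The pair at 19.2 and 17.7 is called in all 3 lists, and the other combined peaks lie at 6.15 or below.

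The other X runs of at least 4 were smaller. The left arm had a run of 5 peaks from X 4137833 to 4147911, of which replicate 1 listed 2 and both replicates 1, with a lowest q of 2.32e-08. The right arm had 4 peaks in the 4622 bp from X 14557334 to 14561955, of which replicate 1 listed 2, and the strongest was the both-list peak at 14561448 (3.30e-13). X 13348531 to 13358847, also in the right arm, held 4 peaks of which all were in replicate 1 and none in replicate 2, with q-values from 2.96e-06 to 0.00124. A combined peak found in both lists stood in 3 of the 4 runs.

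**Figure D5:**
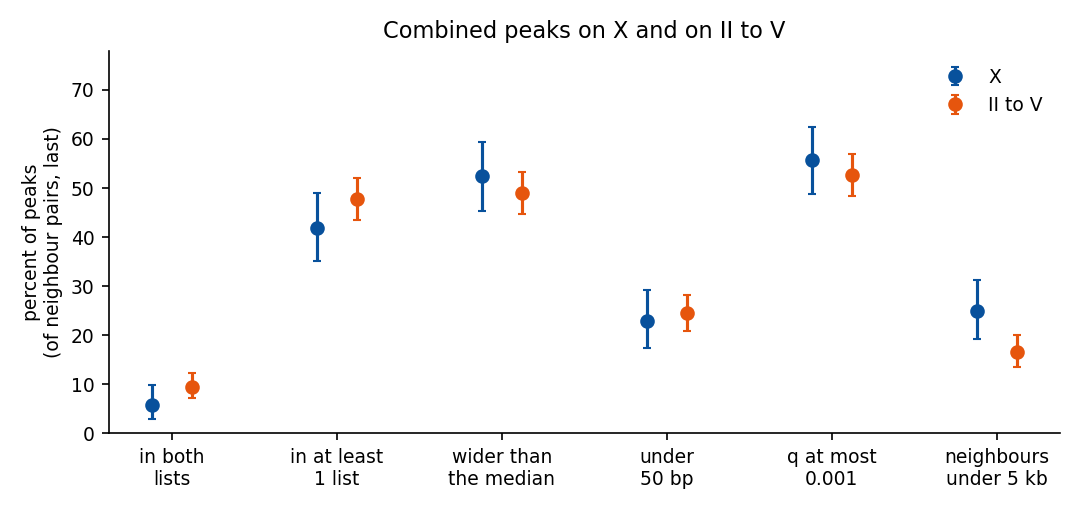
Share of combined peaks (vertical axis, percent, with exact intervals at the 95% level) on X (blue) and on II to V (orange) for the 6 properties compared, the last being the share of neighbour pairs less than 5 kb apart. The intervals overlap in all 6, most narrowly for close neighbours (24.9% against 16.5%).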

How the data were processed

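Anti-GFP ChIP and input libraries of L2 larvae were made from crosslinked, sonicated chromatin, per the labels' protocols. The authors deposited 3 peak lists, for ChIP replicate 1, ChIP replicate 2 and the series (combined). Per the file headers, the build is WormBase WS220, the source column names PeakSeq, and the value of each peak is a q-value. The aligner, versions, threshold, use of input and making of the combined list were not given in the sources used here. Depth is unknown, and signal and summits were not analysed here. No sequence or annotation of WS220 was used.

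Peaks were placed by midpoint, and arm limits of X were those of the selection rule. Lengths run to the farthest listed peak end, 17.7 Mb for X and 67.2 Mb for II to V. Gaps count the base pairs between neighbours. A replicate q given for a combined peak is the lowest of its overlapping peaks. Shares carry Clopper-Pearson intervals, densities exact Poisson intervals and density ratios the interval of the underlying share. X was compared with II to V by Fisher's exact test over 6 properties with Benjamini-Hochberg adjustment and a threshold of 0.05. Named peaks were all those in both lists, the 20 strongest, the neighbours of the wide interval, runs of at least 4, all replicate 2 peaks, leading unpartnered replicate 1 peaks and the longest gaps. Members, lists and tests were chosen with earlier results of these data known. Functions were tested on simulated intervals. Python 3.11.15, numpy 2.4.6, pandas 2.3.3, scipy 1.17.1 and matplotlib 3.10.9 were used.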

Additional observations from a re-analysis of the deposited data

How the results depend on the processing

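Among 94 values under other settings, 77 were counted as unchanged. A tested difference counted so if it kept its direction and its passing or not passing of the threshold. A density of an arm or the centre had to lie inside the interval given for all combined peaks. The density ratio of X over II to V had to keep its own interval above 1. The difference between X and II to V in weak peaks listed in replicate 1 ran from -23.1 to -11.4 points over 8 alternatives. Each passed the threshold without adjustment (Fisher's exact test, unadjusted p from 1.39e-04 to 0.00836), and all were added after the values were seen. None of them added chromosome I to the pool, where replicate 1 held 1 of 96 weak peaks, a smaller share than on X. The difference thus holds against II to V only. For the following changes the cause was not tested, except that settings with fewer peaks lower densities by construction. For peaks in at least 1 replicate list the difference was -11.8 points at 50 bp or more and passed the threshold, and 1.59 points at a q of at most 0.001, the opposite direction. Without chromosome V the difference in close neighbours was 9.43 points and passed, and over 11 alternatives its adjusted p ran from 0.0461 to 0.376. The difference in peaks under 50 bp was 0.28 points without chromosome III, and that in peaks with a q of at most 0.001 was -3.74 points in the replicate 1 list. The density ratio of X over II to V, with alternatives added after the values were seen, was 1.08 in the replicate 1 list, 1.28 for peaks in at least 1 list, 0.844 in the replicate 2 list and 0.876 for peaks in both lists. Densities from left arm to right arm were 5.38, 5.20 and 7.11 per Mb in the replicate 1 list and 5.05, 6.94 and 8.07 at a q of at most 0.001, and 7.17 and 8.51 in the left arm and centre at 50 bp or more. With only 1 replicate list the share in both lists and the share in at least 1 list become the same share. Its difference was -6.53 points with replicate 1 and -3.15 points with replicate 2. The 94 values and the 77 count each of these under both shares, and neither is an alternative for presence in both lists. No paired analysis was possible because the comparisons are between chromosomes of the same lists, and the files at hand hold no list for the input group.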
